A study of Mus musculus with 6 samples.

Results

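The endothelial and angiogenesis genes are 40 named genes of blood vessel walls and of the signals that make vessels grow. They were chosen by gene symbol, as all probe sets that the platform annotation assigned to exactly 1 of these symbols, and 71 probe sets met this rule, with at least 1 for each of the 40 genes. The whole array named 18193 genes in this way. Probe sets, the array's units, each read 1 transcript through several short probes. In summaries a gene with several is represented by the brightest over all arrays.

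Blood vessels are lined by endothelial cells, which are held together by junction proteins such as VE-cadherin (Cdh5) and sense growth factors of the VEGF family through receptor kinases (Flt1, Kdr, Flt4) and neuropilin co-receptors. Growing tumours draw in new vessels when hypoxic tumour or stromal cells release VEGF-A, and the angiopoietin and Tie system, apelin, Notch signals and Sox and Ets transcription factors shape the new sprouts. Human IL8 (CXCL8) is a chemokine that attracts neutrophils and is known as an angiogenic factor, which acts on endothelial and myeloid cells that carry its receptors.

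Expression was measured on 6 Affymetrix arrays of colon tumours from mice of mixed CBA and C57BL/6 background, 3 of wild type (control) mice and 3 of mice with a human IL8 transgene. The design asks how tumours that carry the transgene differ from tumours that do not. The sources used here do not give the promoter of the transgene, the age of the mice, how tumours arose or whether an array holds 1 tumour or several. The p-values therefore cover the spread among these 6 samples, part of which may be technical. All animals are labelled male, yet Xist ran from 12.27 to 12.89 in the transgenic and from 2.33 to 2.64 in the control group, while the Y-linked Eif2s3y ran from 2.39 to 2.71 and from 9.99 to 10.22. Sex and genotype therefore cannot be told apart in any value given here, and 1 member, Apln, lies on the X chromosome.

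Array medians lay between 3.31 and 3.36 on the log2 scale, and 41.8% to 43.0% of probe sets reached a log2 value of 4. Transgenic array 2 stood apart by genes of stratified squamous epithelium, with Krtdap at 12.31 and Trp63 at 8.97 against at most 2.62 and 2.29 on the other arrays. Transgenic array 1 had the smallest difference between the 3′ and 5′ Gapdh control probe sets, 0.71 against 0.87 to 0.96 elsewhere.

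Only probe sets that reached 4 on the log2 scale on 3 or more arrays entered the test. Of the 40 genes, 26 had such a probe set and 14 did not, whereas 56.6% of all genes on the array passed. The 14 hold several of the markers by which endothelium is usually recognised. The junction and surface genes Pecam1 (CD31), Cldn5, Gja4 and Icam2 reached no more than 4.01, 3.99, 3.80 and 4.15 on any array. Tie1, an orphan receptor of the Tie family, the guidance receptor gene Robo4 and the transcription factor genes Erg and Tal1 stayed at or under 3.15, 3.87, 3.17 and 2.90. S1pr1, the sphingosine-1-phosphate receptor of endothelium, stayed at or under 3.25. Esm1, Dll4, Ramp2, Flt4 and Sox7, whose products are a tip-cell proteoglycan, a Notch ligand, a receptor-modifying protein, the VEGF-C receptor and a Sox factor, had their highest values at 4.54, 4.28, 4.39, 4.50 and 4.85. No difference is read from these 14 genes. The defining marker Cdh5 was above 4 on all 6 arrays, as were Esam, Plvap and Vwf. A low value is not a sign that a gene is silent, because probe sets differ in how well they bind, and levels of different genes are not set against each other. In whole tumour RNA, fewer vessel cells and less RNA per vessel cell cannot be told apart.

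No member passed the test. With limma, 0 of the 26 tested genes had an adjusted p under 0.05, against a background of 0.0486% of all 10289 genes tested. Of their 39 tested probe sets 0 passed, against 0.0570% of all probe sets. An unadjusted p under 0.05 was found for 2 of the 26, against 5.82% of all genes, and both were lower in transgenic tumours (3.63% of all genes were lower and 2.20% higher at this level). Adjusted p-values ran from 0.806 to 0.983. The differences, transgenic minus control, ran from -1.92 to 0.60 on the log2 scale with a median of -0.19, beside a median of -0.02 over all genes. This median was -0.10 without control array 3 and also without the filter. Of the 26 differences, 19 were below 0 and 7 above, which is 73.1% below 0 against 53.8% of all genes, and without control array 3 these counts were 15 and 11. Groups did not overlap for 2 genes on the lower side (Sox18 and Nrp1), 7.69% of those tested against 6.75% of all genes, and for 2 on the higher side (Vegfa and Nrp2), 7.69% against 4.77%. These shares lie near the background. For 13 of the 26 genes the 95% interval of the fit lay within a 2-fold difference in either direction, so that a larger difference is outside the interval for these and inside it for the other 13.

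**Figure D1:**
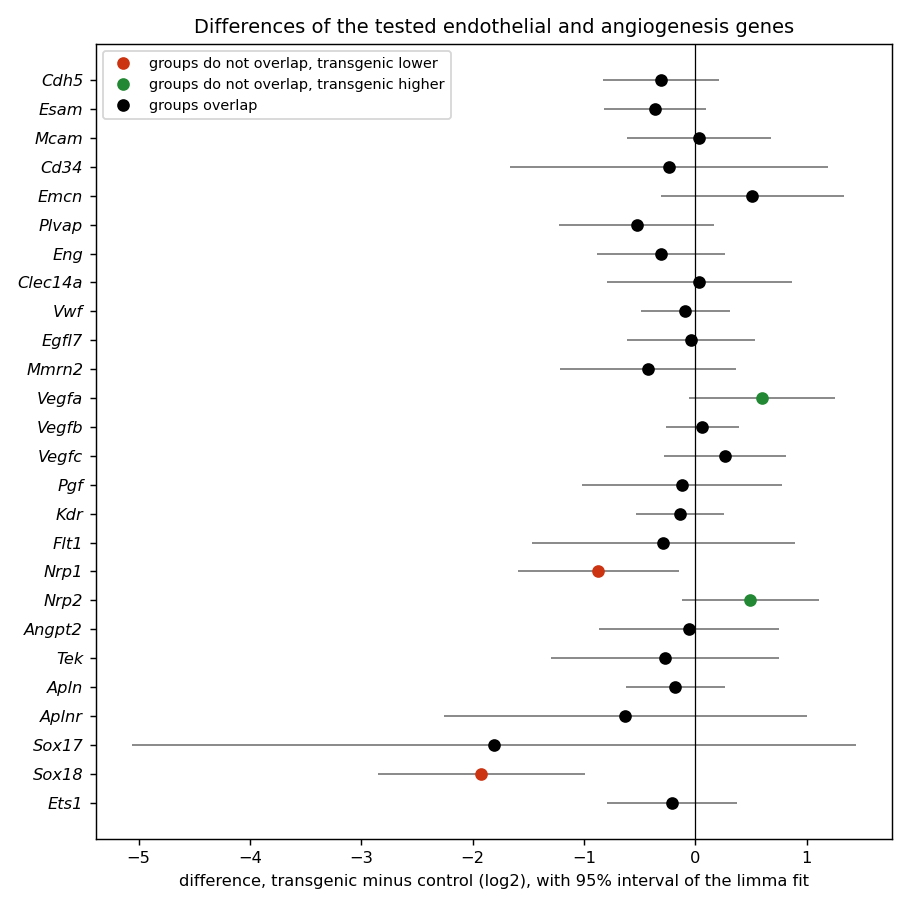
Difference between transgenic and control tumours (log2, horizontal axis) for each of the 26 tested genes, ordered by role, with the 95% interval of the limma fit. Red points mark non-overlapping groups with transgenic values lower, green points with transgenic values higher. Sox18 and Nrp1 are the genes whose interval lies below 0, and the interval of Sox17 is the widest, from -5.06 to 1.45.

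The transcription factor gene Sox18 had the largest difference of the members. Sox18 is an endothelial Sox factor needed for the growth of blood and lymphatic vessels. It was at 6.95, 7.44 and 6.98 on the control arrays and at 4.36, 5.56 and 5.69 on the transgenic arrays. Every transgenic array lay below every control array, and the array nearest the control values, array 3, was still 1.26 below the lowest of them. The difference was -1.92 ± 0.38 (SE), or 3.79-fold lower, with an interval of -2.85 to -0.99. It did not pass (limma unadjusted p 0.00212, adjusted p 0.806). With 1 array left out it ran from -2.17 to -1.50, so that no single array carried it, and over all alternatives the smallest limma adjusted p of Sox18 was 0.241 and the largest 0.999. Sox18 was measured by 1 probe set, so no second probe set bears on it.

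Sox17, a close relative of Sox18 that acts in arterial endothelium and also in other tissues, behaved differently. It was at 10.07, 10.90 and 10.83 on the control arrays and at 10.19, 5.49 and 10.70 on the transgenic arrays. Transgenic arrays 1 and 3 lay inside the control range, and array 2 lay 4.58 below the lowest control array. The difference was -1.81 ± 1.34, and without transgenic array 2 it was -0.155. A second Sox17 probe set gave -1.83 ± 1.52, with array 2 at 4.16 and the other arrays at 8.84 or more. Array 2 is the array on which squamous epithelium genes were high. Of the 6 tested squamous markers the median on that array was 4.43 above the control mean, and the part of this tissue in the Sox17 value was not tested. Ets1, an Ets factor of endothelium and lymphocytes, was at 8.65 ± 0.33 (SD, n = 3) in control and 8.43 ± 0.30 in transgenic tumours, a difference of -0.21 ± 0.24 with overlapping groups, and -0.22 ± 0.17 at its second probe set. With 1 array left out the first of these ran from -0.40 to -0.11.

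**Figure D2:**
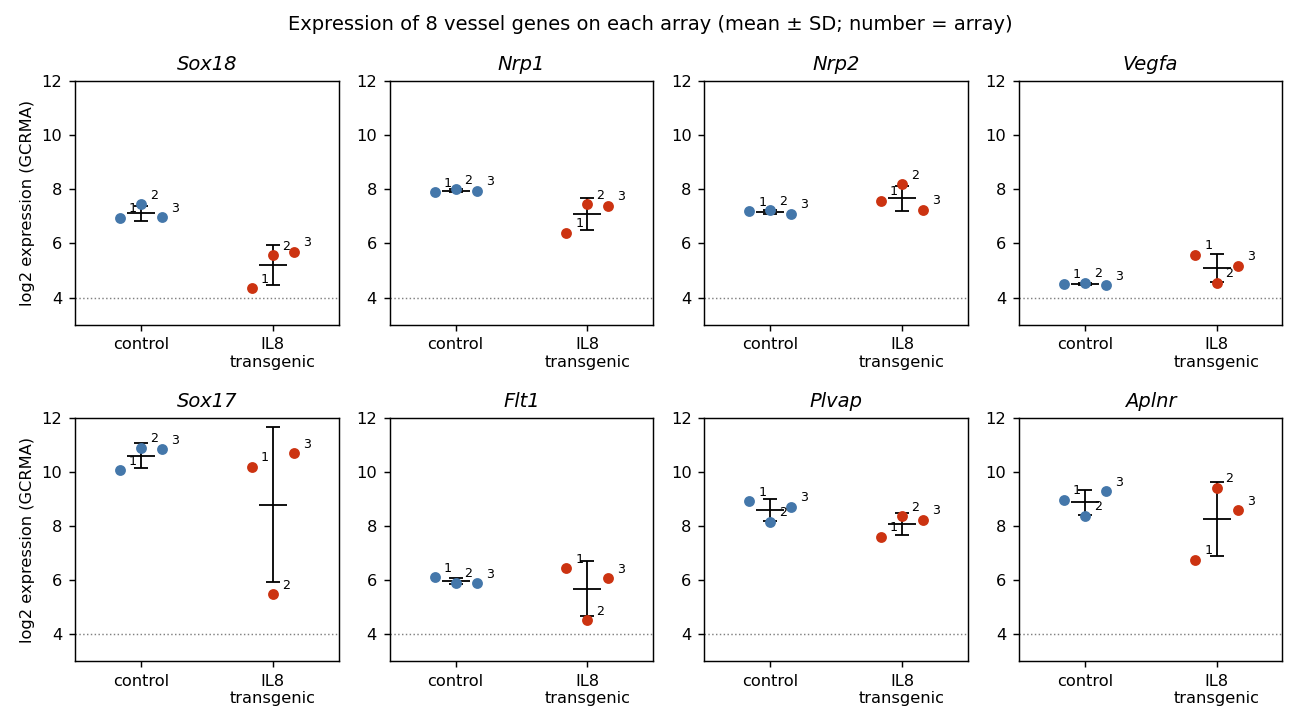
Log2 expression of 8 genes on each array, with the array number beside each point, the group mean and SD as bars and the level of 4 used as the filter as a dotted line. All Sox18 and Nrp1 values of transgenic tumours lie below the control values, Sox17 and Flt1 are low on transgenic array 2 alone, and Aplnr is lowest on transgenic array 1.

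Among the ligands of the VEGF family, 3 of 4 (Vegfa, Vegfb and Vegfc) were above the control mean on all 3 transgenic arrays, where this held for 17.0% of all genes, but Vegfb and Vegfc overlapped the control values. Vegfa, the main growth factor of new vessels, was at 4.52, 4.55 and 4.45 on the control arrays and at 5.58, 4.56 and 5.18 on the transgenic arrays. Arrays 1 and 3 were clearly above the controls, and array 2 exceeded the highest control array by 0.005. The difference was 0.60 ± 0.27, or 1.51-fold, with an interval of -0.06 to 1.25 (limma unadjusted p 0.0672, adjusted p 0.806), and leaving out transgenic array 2 gave 0.87, leaving out array 1 0.36. The other Vegfa probe set stayed below the filter, at 3.59 to 4.01.

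Vegfc, the ligand of lymphatic growth, was at 5.19 ± 0.39 in control and 5.46 ± 0.13 in transgenic tumours, and its 3 kept probe sets gave differences of 0.27, 0.26 and 0.46. Without control array 1, where the brightest was at 4.75, the difference was 0.04. Vegfb, a ligand of Flt1, was at 4.18 ± 0.10 and 4.24 ± 0.03, and its interval of -0.27 to 0.39 excludes a 2-fold difference. Pgf, the placental growth factor, which also binds Flt1, was at 3.93, 4.36 and 4.55 in control and 4.83, 3.45 and 4.19 in transgenic tumours, with the highest and the lowest of all values on transgenic arrays 1 and 2.

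The neuropilins, which bind VEGF and semaphorins beside the receptor kinases, went opposite ways. Nrp1, the co-receptor of Kdr in endothelium, was at 7.90, 8.0002 and 7.94 on the control arrays and at 6.40, 7.44 and 7.39 on the transgenic arrays. The groups did not overlap, and transgenic array 1 was 0.99 below the next lowest. The difference was -0.87 ± 0.30, or 1.83-fold lower, with an interval of -1.59 to -0.15 (limma unadjusted p 0.0256, adjusted p 0.806), and -0.53 without transgenic array 1. All 4 kept Nrp1 probe sets were below 0, but the other 3 gave smaller differences, -0.22 ± 0.22, -0.54 ± 0.28 and -0.34 ± 0.37, and their groups overlapped.

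Nrp2, the neuropilin of veins and lymphatic vessels, was at 7.19, 7.23 and 7.10 on the control arrays and at 7.58, 8.18 and 7.24 on the transgenic arrays. Transgenic array 3 lay just above the highest control array, and array 2 was the highest. The difference was 0.49 ± 0.25, with an interval of -0.12 to 1.11 (limma unadjusted p 0.0982, adjusted p 0.806), and 0.24 without transgenic array 2. The other 2 kept probe sets gave 0.48 ± 0.62 and 0.33 ± 0.33, and at both the groups overlapped.

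The windows of 250 bases before the transcription start of Nrp1, Nrp2 and Vegfa are shown because the ligand and its co-receptors are the VEGF pathway members whose groups did not overlap. They are RefSeq windows on assembly GRCm38.p6, at chr8:128358823-128359072 (plus strand), chr1:62703067-62703316 (plus strand) and chr17:46032378-46032627 (minus strand), and each is written from 5′ to 3′ along its gene. Where a gene had several starts, the one farthest upstream was taken. Capitals mark GC boxes, the letters GGGCGG on either strand, which Sp1-family factors can bind.
Nrp1: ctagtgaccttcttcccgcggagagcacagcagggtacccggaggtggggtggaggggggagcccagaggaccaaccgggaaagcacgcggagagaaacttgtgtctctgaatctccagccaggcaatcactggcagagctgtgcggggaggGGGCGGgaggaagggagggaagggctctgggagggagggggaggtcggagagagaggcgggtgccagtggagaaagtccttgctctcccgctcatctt
Nrp2: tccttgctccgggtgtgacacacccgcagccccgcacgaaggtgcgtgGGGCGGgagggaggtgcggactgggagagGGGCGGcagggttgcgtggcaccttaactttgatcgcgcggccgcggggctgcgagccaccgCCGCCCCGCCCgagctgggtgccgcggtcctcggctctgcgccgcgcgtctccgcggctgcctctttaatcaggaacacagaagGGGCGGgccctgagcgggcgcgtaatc
Vegfa: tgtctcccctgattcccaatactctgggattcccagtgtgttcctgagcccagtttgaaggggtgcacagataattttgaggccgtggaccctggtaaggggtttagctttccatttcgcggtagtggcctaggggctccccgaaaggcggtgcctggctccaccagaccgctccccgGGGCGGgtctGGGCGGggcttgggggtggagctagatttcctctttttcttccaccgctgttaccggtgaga
Nrp1 held 1 GC box, Nrp2 5 and Vegfa 2, where the GC boxes of Nrp2 include a pair that overlap by their end letters. GC made up 64.4%, 72.4% and 59.2% of these windows. None of the 3 windows held the letters CCGGAA, a site of Ets factors, or ACGTG, the core of the hypoxia response element, on either strand, which says only that these letters are not in these windows. Windows were held for 25 of the 40 genes, 32 windows in all. A GC box was in 18 of the 32 (56.2%) against 33.0% of 32536 windows of all genes, CCGGAA in 1 (3.12% against 12.1%) and ACGTG in 2 (6.25% against 16.7%). These matches are a description of the sequences and not of binding.

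**Figure D3:**
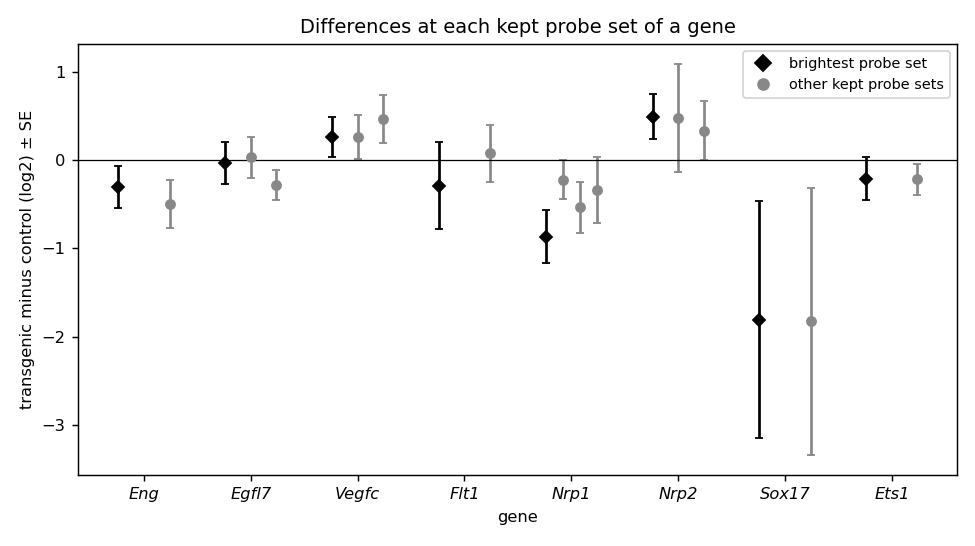
Difference between transgenic and control tumours (log2, ± SE) at each kept probe set of the 8 genes that had more than 1. Of these genes 6 had the same sign at all their probe sets, Nrp1 varied in size between -0.87 and -0.22, and Egfl7 and Flt1 differed in sign.

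Of the VEGF receptor kinases Kdr and Flt1 were tested, and both were slightly below the control level by the mean. Kdr, the main signalling receptor of VEGF-A, was at 4.79, 4.42 and 4.63 on the control arrays and at 4.44, 4.62 and 4.37 on the transgenic arrays. The groups overlapped, and the interval of the difference of -0.14, -0.53 to 0.26, excludes a 2-fold difference. Flt1, a high-affinity receptor that also acts as a decoy for VEGF-A, was at 6.11, 5.91 and 5.88 on the control and at 6.44, 4.52 and 6.07 on the transgenic arrays. Array 2 alone was low. The difference of -0.29 ± 0.49 became 0.29 without transgenic array 2 and -0.67 without array 1, and the second kept Flt1 probe set gave 0.08 ± 0.32.

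Of the angiopoietin and Tie genes, Angpt2, which loosens the vessel wall at sprouting sites, was at 5.24, 5.52 and 5.93 on the control and at 6.07, 4.93 and 5.52 on the transgenic arrays. The mean difference was -0.06 ± 0.33, with the highest and the lowest values of the series on transgenic arrays 1 and 2. Across the 6 arrays Angpt2 and Pgf had a Pearson correlation of 0.98, the highest of any pair of tested members, and Clec14a and Flt1 one of -0.97. Flt1 and Sox17, both low on transgenic array 2 alone, had one of 0.90. These pairs were picked from all pairs of the 26 tested members. These are descriptions over 6 arrays, and the genes on any 1 array share its tissue and its normalization. Tek (Tie2), the angiopoietin receptor, was at 5.43, 3.79 and 4.19 in control and 3.996, 4.22 and 4.38 in transgenic tumours. Control array 1 stood above the others, and without it the difference of -0.27 became 0.21.

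Of the apelin pair, Aplnr, the receptor of endothelial sprouts, was at 8.97, 8.38 and 9.29 on the control arrays and at 6.75, 9.41 and 8.59 on the transgenic arrays. Transgenic array 1 lay at least 1.63 below every other array, and array 2 was the highest of all. The difference of -0.63 ± 0.67 became 0.12 without transgenic array 1. Apln, the ligand, was near the filter level at 4.04 ± 0.17 and 3.86 ± 0.23, and its difference of -0.18 was -0.05 without transgenic array 1.

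Among the junction and surface genes of the endothelium, Cdh5, Esam, Cd34, Plvap, Eng and Clec14a had their lowest value on transgenic array 1, and Mcam and Emcn did not. Of their 8 tested members, 5 were lower in transgenic tumours by the mean and 3 higher, and 0 passed. Transgenic arrays 1, 2 and 3 deviated from the control mean by a median of -0.55, 0.21 and -0.33 over these genes. Plvap, the protein of the diaphragms in fenestrated capillaries, was at 8.91, 8.16 and 8.71 on the control and at 7.61, 8.36 and 8.23 on the transgenic arrays. Transgenic array 1 was the lowest and the groups overlapped, with a difference of -0.53 ± 0.29 that was -0.30 without array 1.

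Cdh5 (VE-cadherin) was at 5.45, 5.30 and 5.76 on the control and at 4.999, 5.53 and 5.05 on the transgenic arrays. Esam, another adhesion molecule of endothelial junctions, was at 6.12, 5.82 and 6.15 and at 5.50, 5.95 and 5.56. For both genes transgenic arrays 1 and 3 lay below all controls and array 2 inside the control range. The differences were -0.31 ± 0.22 and -0.36 ± 0.19. With 1 array left out, Cdh5 ran from -0.48 (without transgenic array 2) to -0.18 (without control array 3), and Esam from -0.50 to -0.27.

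Eng (endoglin), a co-receptor for TGF-beta ligands, was at 5.81 ± 0.24 in control and 5.50 ± 0.37 in transgenic tumours, and its 2 probe sets gave -0.31 and -0.50. Without transgenic array 1 the first of these was -0.12, and without array 2 it was -0.49. Cd34, a sialomucin of capillaries and blood progenitors, spread most in this class, from 3.99 on transgenic array 1 to 6.13 on transgenic array 2, around a difference of -0.23 ± 0.59. Clec14a, a lectin-like receptor of tumour vessels, ran from 3.82 to 5.17 on the same arrays, and its difference of 0.04 became 0.34 without array 1 and -0.34 without array 2. Emcn (endomucin), a sialomucin of veins and capillaries, was the exception, at 4.80, 4.02 and 4.62 in control and 5.30, 5.32 and 4.36 in transgenic tumours, a difference of 0.51 ± 0.34 with overlapping groups. It was 0.28 without control array 2 and 0.83 without transgenic array 3. Mcam (CD146), an adhesion molecule of endothelium and pericytes, differed by 0.03 ± 0.27.

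The secreted endothelial products were close to the control level at their brightest probe sets except 1. Vwf, the von Willebrand factor that binds platelets, was at 8.15, 7.93 and 8.14 on the control and at 8.17, 7.97 and 7.79 on the transgenic arrays, and its interval of -0.49 to 0.31 excludes a 2-fold difference. Egfl7, a matrix-bound factor of vessel sprouts, differed by -0.04 ± 0.24 at its brightest probe set and by 0.03 and -0.28 ± 0.17 at the other kept ones. At the last of these the groups did not overlap, with transgenic values lower, while at the first they overlapped. Mmrn2, an endothelial matrix protein that binds Clec14a, was at 7.29, 7.001 and 7.34 and at 6.39, 7.51 and 6.45. Its transgenic arrays 1 and 3 lay below all controls and array 2 above them, with a difference of -0.43 ± 0.33. It was -0.79 without array 2, -0.23 without array 1 and -0.26 without array 3.

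**Figure D4:**
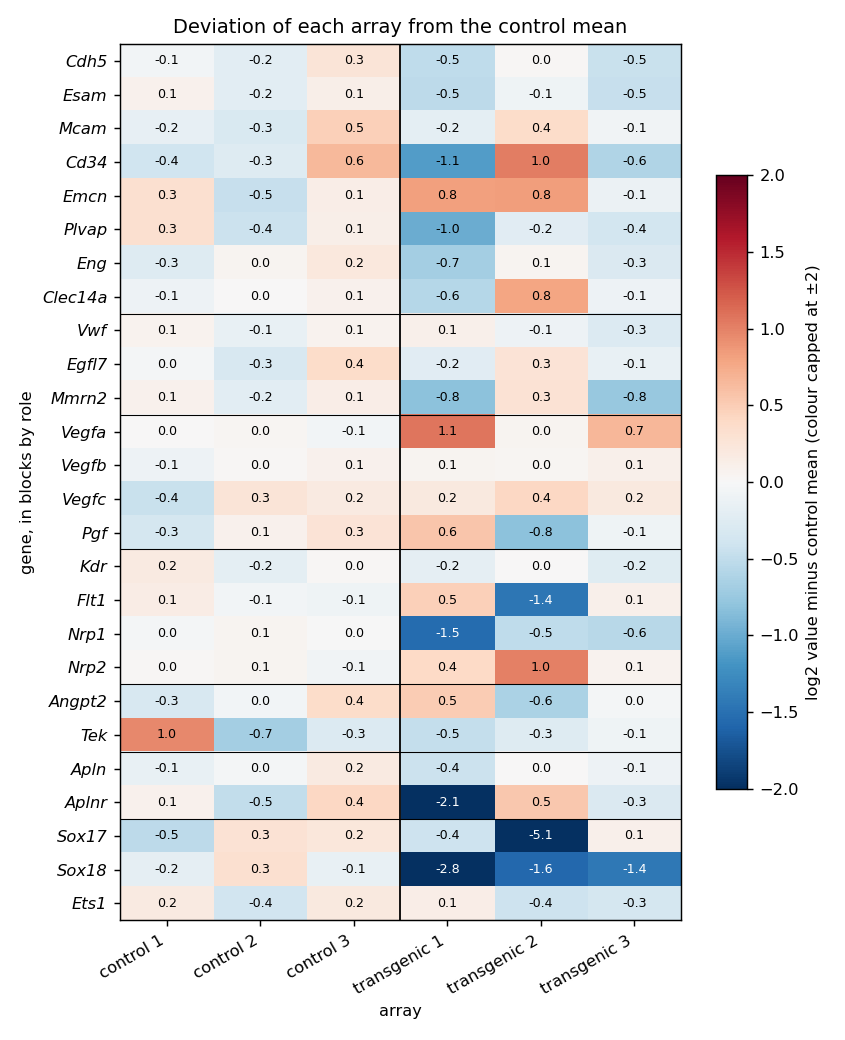
Log2 value of each array minus the control mean of the gene, for the 26 tested genes in blocks by role and with the colour capped at ±2. Transgenic array 1 is lowest for Plvap, Eng, Mmrn2, Nrp1, Aplnr and Sox18, among others, while Vegfa is highest there, and the value of -5.11 is Sox17 on transgenic array 2.

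Array by array, 11 of the 26 members had their lowest value on transgenic array 1 (Cdh5, Esam, Cd34, Plvap, Eng, Clec14a, Mmrn2, Nrp1, Apln, Aplnr and Sox18), which is 42.3% against 26.9% of all genes. Transgenic array 2 held the lowest value of 5 members (19.2% against 27.6%) and the highest of 7 (26.9% against 25.5%). Transgenic array 1 held the highest value of 5 members (19.2% against 23.2%), and transgenic array 3 the lowest of 2 (7.69% against 7.53%). Over the 26 tested members, the median deviation of transgenic arrays 1, 2 and 3 was -0.32, 0.02 and -0.13, where the same median over all genes was -0.03, -0.02 and -0.01. On all 3 transgenic arrays 5 members (Esam, Plvap, Nrp1, Tek and Sox18) were below the control mean, 19.2% against 21.4% of all genes, and 4 (Vegfa, Vegfb, Vegfc and Nrp2) above it, against 17.0%. The SD was larger in the transgenic group for 19 of the 26, as it was for 70.4% of all genes.

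Markers of other cells also differed between these arrays. All 9 tested fibroblast markers were below the control level by the mean, with a median of -0.64, but without transgenic array 1 this held for 7 and not for 2, with a median of -0.29. For these markers transgenic arrays 1, 2 and 3 had median deviations of -1.36, -0.25 and -0.44. Their summed linear signal ran from 21950 to 25070 on the control and from 11820 to 18930 on the transgenic arrays, and Pdgfra, a fibroblast receptor, differed by -1.24. All 9 tested macrophage markers were also below the control level, with a summed signal of 3776 to 5296 against 1456 to 3426 and a median deviation lowest on array 2, at -2.22. Of the 8 pan-leukocyte markers 7 were lower, with a summed signal of 3533 to 4704 against 1962 to 3603. Over all genes 53.8% were lower and 46.2% higher. Of the 11 epithelial markers 10 were higher and 1 lower, with a median of 0.21, and they were summed at 66200 to 78490 and 75440 to 80600. All 6 tested smooth muscle markers were higher by the mean, but without transgenic array 2 this held for 4 and not for 2. Smooth muscle markers were summed at 3222 to 3640 on the control arrays and from 2053 on transgenic array 1 to 10740 on array 2. Of 6 platelet and megakaryocyte markers, Itga2b, Gp9 and Treml1 stayed under 4 on every array. Of the 3 tested, 2 were higher and 1 lower, with a median of 0.16. The summed signal of this list was 391.6 to 572.3 on the control and 366.3 to 1260 on the transgenic arrays, highest on array 2. A limma unadjusted p under 0.05, on the lower side, was found for 7 macrophage, 3 pan-leukocyte and 2 fibroblast markers, against 3.63% of all genes. In the epithelial, smooth muscle and platelet lists 0 had such a p in either direction. None of these markers passed the test, and the part of these cells in the vessel gene values was not tested.

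**Figure D5:**
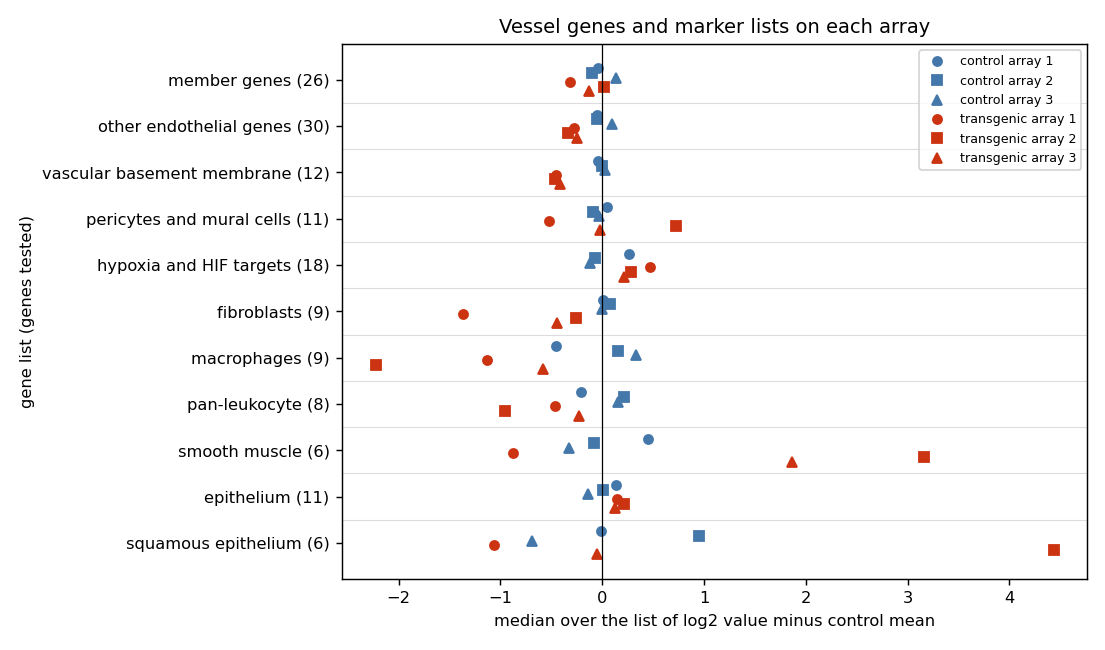
Median over each list of the log2 value minus the control mean, for each of the 6 arrays, with the number of tested genes in parentheses. The 26 member genes and the fibroblast markers are lowest on transgenic array 1, the other endothelial genes on array 2, the 3 transgenic arrays lie together between -0.47 and -0.41 for the basement membrane genes, and the squamous markers reach 4.43 on transgenic array 2.

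A list of 48 further endothelial genes held 30 that were tested, of which 19 were lower, 11 higher and 0 passed with limma, while 6 lower and 1 higher had an unadjusted p under 0.05, where 3.63% of all genes were lower and 2.20% higher at this level. Its median was -0.34 and ran from -0.45 to -0.23 with 1 array left out. Genes of this list need not be limited to endothelium, and the part of other cells in it, such as the macrophages above, was not tested. Tmem204, a membrane protein of vessels that modulates VEGF signalling, was at 6.78, 6.75 and 6.93 on the control and at 6.36, 6.04 and 6.03 on the transgenic arrays. Adgrf5, an adhesion receptor of capillaries, differed by -0.58 ± 0.15 and Podxl, a sialomucin of vessels and other cells, by -0.98 ± 0.28. In these 3 genes the groups did not overlap, as in 6 of the 30 on the lower side against 6.75% of all genes, and none passed (limma adjusted p 0.806 for each). On the higher side groups did not overlap for 1 of the 30, against 4.77% of all genes. This was Notch4, a Notch receptor, which differed by 1.10 ± 0.34 and did not pass either.

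The genes of the vascular basement membrane, the sheet of collagen IV, laminins and nidogens under the endothelium, were lower in all 12 tested members, where 53.8% of all genes were lower, with a median of -0.49. With limma 0 passed, and 3 had an unadjusted p under 0.05 on the lower side against 3.63% of all genes. Without transgenic array 1, 11 were lower and 1 higher. The median deviation was alike on the 3 transgenic arrays, -0.46, -0.47 and -0.41. Col18a1, which encodes the precursor of the angiogenesis inhibitor endostatin, was at 9.50, 9.77 and 9.28 on the control and at 8.39, 7.78 and 8.36 on the transgenic arrays. The difference was -1.34 ± 0.23 (limma adjusted p 0.779). The laminin gene Lamb1 differed by -0.65 and Sparc, a matrix protein also made by fibroblasts, by -0.59, and groups did not overlap on the lower side for 6 of the 12 against 6.75% of all genes, Col18a1, Lamb1 and Sparc among them. Fibroblast markers were also lower on these arrays, as given above.

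Genes induced by hypoxia, of which Vegfa is a known target, were higher in 16 of 18 tested members against 46.2% of all genes, with a median of 0.32, and 0 passed with limma (2 with an unadjusted p under 0.05, both higher, against 2.20% of all genes). The median deviation was 0.47, 0.28 and 0.22 on transgenic arrays 1, 2 and 3, and control array 1 stood at 0.26, inside that range. Without transgenic array 1 the median was 0.20. Car9, a carbonic anhydrase of hypoxic cells, was at 9.36, 8.28 and 7.88 on the control and at 10.01, 10.12 and 9.03 on the transgenic arrays, with overlapping groups. Pdk1, a kinase that restrains pyruvate use, differed by 0.79 and Ankrd37 by 0.59. Vegfa itself was at 5.58, 4.56 and 5.18 on transgenic arrays 1, 2 and 3. Among these arrays it was highest on array 1, like the medians, and lowest on array 2, where the medians were lowest on array 3. The part of hypoxia in the Vegfa values was not tested.

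Other angiogenic growth factors and VEGF signalling genes had no common direction, with 8 of 12 tested members lower, 4 higher and a median of -0.03. With limma 0 passed, and 2 had an unadjusted p under 0.05, both higher, against 2.20% of all genes. Hbegf, an EGF receptor ligand, differed by 1.27 ± 0.42 with groups that did not overlap, Fgf1 by 1.35 ± 0.51 and the kinase gene Mapkapk2 by -0.39 ± 0.17. Groups did not overlap for 1 of the 12 on the higher side, against 4.77% of all genes, and for 1 on the lower side, against 6.75%. The 7 tested angiogenesis inhibitors had a median of -0.01, with 4 lower and 3 higher and 0 passed (limma, 0 with an unadjusted p under 0.05). Sema3f differed by -0.87, Adamts1 by 0.86 and Thbs2 by -0.25. The Adamts1 value of 8.06 on transgenic array 1 stood above all others, which were at 5.87 or less.

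A list for mural cells, the pericytes and smooth muscle cells around vessels, held 11 tested genes, of which 8 were higher and 3 lower. With limma 0 passed (0 with an unadjusted p under 0.05), and the median of 0.13 was -0.12 without transgenic array 2. This list holds contractile genes that the muscle wall of the colon also expresses. Cnn1 was at 9.28 and 8.36 on transgenic arrays 2 and 3 and at 4.99 or less elsewhere. The pericyte genes Pdgfrb and Rgs5 differed by -0.40 ± 0.20 and -0.29 ± 0.19, with overlapping groups. Abcc9, Kcnj8 and Notch3, which are no contractile genes either, were above the control mean by 0.16, 0.13 and 0.13. Pdgfb, also in this list, encodes a ligand of the Pdgfrb receptor rather than a marker of mural cells, and was above the control mean by 0.02. Of 4 tested lymphatic genes 3 were lower and 0 passed (limma, 1 with an unadjusted p under 0.05, on the lower side, against 3.63% of all genes). Foxc2, a factor of lymphatic valves, was at 6.08, 6.44 and 6.65 on the control and at 4.57, 2.87 and 4.9998 on the transgenic arrays. Prox1, the master factor of lymphatic identity, which colon tumour epithelium can also express, had 1 low value, 4.12 on transgenic array 2 against 9.17 or more elsewhere. Sox17 was low on the same array. Lyve1 differed by 0.86, with values from 3.21 to 5.39.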

How the data were processed

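Expression in 6 colon tumour samples, 3 control and 3 IL8 transgenic, was read from log2 values per probe set that the authors deposited, made with GCRMA per the submitters' processing notes. This method subtracts a background estimated from probe sequence, normalizes the arrays to each other and combines the probes of a set. The sources used here do not give its version. The number of arrays limits the precision. Genes were named from the platform annotation. Of 45101 probe sets, 34958 had 1 symbol, 932 several and 9211 none listed, and 64 control probe sets were left out. All 40 members matched the RefSeq table of GRCm38.p6 by Entrez identifier. The 2 probe sets annotated to both Ramp2 and Vps25 were not used.

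Groups were taken from the sample titles, because a source label holding "control" also stands on transgenic samples. The comparison used lmFit and eBayes of limma 3.58.1 (R 4.3.3) on 19310 probe sets with a log2 value of at least 4 on 3 or more arrays, with Benjamini-Hochberg adjustment over all of them. The fit was run on simulated data with planted differences, independent noise and the same SD in both groups. This checks that the code recovers such differences and says nothing about how well the real arrays meet these terms. Lists are described by counts and medians, without a set test. All tested members are named, and up to 3 genes of each other list with the smallest p. A few further genes are named where a list also went the other way. Members and lists were chosen with earlier results of these data known. The alternatives were other filters, normalizations, variance priors, array weights, a replicate block, a floor of 4, the mean over probe sets, an adjusted p threshold of 0.1 and each array left out.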

Additional observations from a re-analysis of the deposited data

How the results depend on the processing

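No member gene passed the test in any of the 375 alternative values computed for the 26 genes, and the smallest adjusted p was 0.241 (Sox18). The count of probe sets that passed over the whole array stayed between 8 and 12. The median difference of the members was -0.43 with the stricter filter at 6, which left 11 genes. It was -0.10 without the filter and -0.26 to -0.10 with 1 array left out, the last without control array 3. The number of genes whose groups did not overlap was 2 with the mean over kept probe sets and 3 (2 of them lower) with quantile normalization. With 1 array left out it was 4 to 10, with 9 without control array 2 and 10 (8 of them lower) without transgenic array 2. Smaller groups part more easily, and the share over all genes was not set beside these counts. They are therefore not read as a result about the members. Of the 26 genes, 16 kept their sign in every alternative. The other 10 turned with 1 array left out, over ranges of -0.14 to 0.27 for Mcam, -0.86 to 0.21 for Cd34, -0.34 to 0.34 for Clec14a, -0.19 to 0.0017 for Vwf, -0.20 to 0.14 for Egfl7, -0.46 to 0.23 for Pgf, -0.67 to 0.29 for Flt1, -0.34 to 0.23 for Angpt2, -0.61 to 0.21 for Tek and -1.21 to 0.12 for Aplnr. Egfl7 was also 0.037 with array quality weights, and the cause was not tested. Pgf was 0.039 with values under 4 set to 4, which raises its 3.45 on transgenic array 2 and its 3.93 on control array 1. Groups share replicate numbers, and the deviations of same-numbered arrays correlated at -0.267, -0.277 and -0.051. Those of arrays with unlike numbers correlated at -0.064 to 0.299. No pairing by number was seen in these values, but 3 arrays per group cannot exclude one. With the replicate block, 8 probe sets and 0 members passed. Signal near background limits the 14 genes that were not tested.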
